A study of Mus musculus with 7 samples.

Results

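The TGF-beta, activin and myostatin genes of the embryonic outflow tract (OFT) are described here, chosen by symbol. They are the 3 TGF-beta ligand genes (*Tgfb1*, *Tgfb2* and *Tgfb3*), their receptor genes (*Tgfbr1*, *Tgfbr2* and *Tgfbr3*), the activin subunit gene *Inhba*, the myostatin gene *Mstn*, the inhibitor gene *Fst* and the receptor gene *Acvr2b*. All 10 were found among the 14732 genes with deposited values. The study asked how the loss of 1 functional copy of *Gata6*, a zinc finger transcription factor, alters the vessel that leaves the embryonic heart and forms its arterial valves. RNA was sequenced from OFTs of mouse embryos at embryonic day 11.5, each library from a pool of embryos. There were 3 control pools (WT, replicates 3, 4 and 5), and 4 *Gata6STOP/+* pools (replicates 1, 3, 4 and 5), which carry a frameshift and premature stop codon in 1 copy of *Gata6* in every cell. The line comes from 1 founder, made by CRISPR-Cas9 in C57BL/6 embryos and crossed back to C57BL/6 according to the methods. The study's resource list also names *Mib1* variant alleles as the background of the line, and the labels give no *Mib1* genotype for either group. The methods and design text give 3 pools of 4 pairs of OFTs for each genotype, whereas the labels hold 4 mutant pools, and all 7 were used.

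TGF-beta ligands, activins and myostatin belong to one superfamily of secreted dimers. Each ligand brings a type II receptor together with a type I receptor, which phosphorylates SMAD2 and SMAD3, and these enter the nucleus with SMAD4. In the OFT, TGF-beta signaling is known for the transition of endocardium into cushion mesenchyme and for smooth muscle differentiation, and mice without *Tgfb2* have OFT and valve defects. Follistatin, the product of *Fst*, binds activins and myostatin outside the cell and blocks them.

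Levels are in CPM, the reads of a gene relative to the size of its library, after TMM scaling, which corrects that size for differences in composition. Groups were compared with limma on log2(CPM+0.5), with the Benjamini-Hochberg adjustment of *P*-values across all 14732 genes. A gene was called at an adjusted *P*-value under 0.05. The pools held 17783655 to 34467710 reads on these genes, and a single member had 85 to 8630 reads in a pool. *Gata6* itself had a mean of 286±28.9 CPM (s.d., *n*=3) in control and of 227±28.7 CPM (s.d., *n*=4) in *Gata6STOP/+* pools. Its groups overlapped, because *Gata6STOP/+* replicate 1, at 268 CPM, lay above control replicate 4, at 257 CPM. Of the cell types of the OFT, the markers examined for cardiomyocytes, smooth muscle, endocardium and cushion mesenchyme all had deposited values. The deposited genes had been filtered at 1 CPM in 3 or more samples, so no listed marker could be at 0 CPM throughout. The summed marker levels of every cell type examined overlapped between the groups, erythroid cells included (2495 to 6020 CPM in control and 2890 to 7675 CPM in *Gata6STOP/+* pools). Single markers were less even. All 9 erythroid and all 4 smooth muscle markers had a higher mean log2 level in *Gata6STOP/+* pools. It was lower for 8 of 9 cardiomyocyte and 5 of 6 cushion mesenchyme markers. Of the endothelial and endocardial markers 5 were higher and 2 lower, of the neural crest and glia markers 2 and 2, and of the macrophage markers 2 and 3. Overlapping sums thus do not show equal cell composition. Because whole tissue was pooled, fewer cells of a type and less RNA per cell cannot be told apart. The labels do not say whether pools shared litters, so *P*-values measure the spread between these pools.

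Among the 10 genes, *Inhba*, *Mstn* and *Tgfbr3* were lower and *Fst* and *Tgfb2* were higher in *Gata6STOP/+* OFTs at an unadjusted *P*-value under 0.05, and 0 were called after adjustment. The adjusted *P*-values ran from 0.276 (*Inhba*) to 0.845 (*Acvr2b*). By limma, 0 of all genes were called (0% of those tested), while for 1187 the unadjusted value was under 0.05. The 5 members under that unadjusted limit, 3 lower and 2 higher, compare with 8.06% of all genes (3.88% lower and 4.17% higher). Every *Gata6STOP/+* pool lay below every control pool for 2 members (*Inhba* and *Tgfbr3*) and above for 1 (*Fst*), compared with 8.47% of all genes whose groups did not overlap in either direction, 4.16% below and 4.31% above. The groups overlapped for the other 7 members. The median log2 fold change was −0.10 over the 10 genes and −0.00073 over all genes, and the median size of the change was 0.21 and 0.081. *Mstn* is a gene that the study singled out on these libraries, so its place here is not independent evidence of its direction. All 10 members were chosen with earlier results of these data known. Their shares beside those of all genes are therefore a description and not independent evidence.

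**Figure D1:**
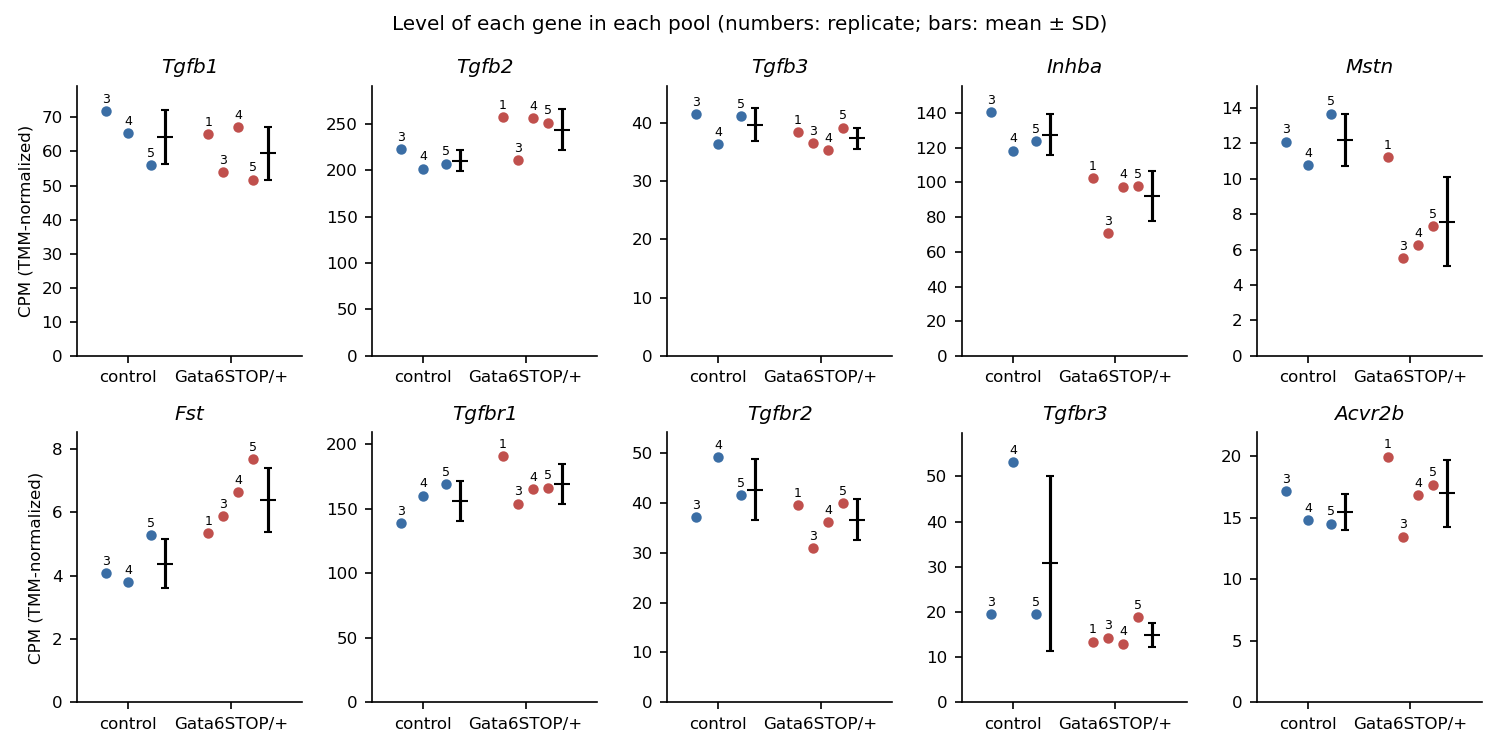
TMM-normalized CPM (vertical axes, from 0) of each of the 10 genes in the 3 control (blue) and 4 *Gata6STOP/+* (red) pools, with the replicate number above each point and the mean±s.d. as black bars. *Inhba* and *Tgfbr3* lie lower in every *Gata6STOP/+* pool, *Fst* lies higher in every one, and control replicate 4 stands far above all other pools for *Tgfbr3*.

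The order of the levels was set per length, as CPM per kilobase of exon. In control pools, *Tgfb2* stood first at 36.3±1.91 CPM per kb (s.d., *n*=3), followed by *Tgfbr1* at 23.9±2.38 and *Inhba* at 19.96±1.82. The ligands *Tgfb1* (12.8±1.57) and *Tgfb3* (11.7±0.846) came next. Below them were *Tgfbr2* (5.20±0.740), *Tgfbr3* (4.70±2.97), *Mstn* (4.499±0.537) and *Acvr2b* (3.94±0.373). *Fst* was the least abundant of the 10, at 0.954±0.170 CPM per kb, below its ligand genes *Inhba* and *Mstn*, though *Inhbb*, which encodes the beta B subunit of activins and is named here for this comparison, was lower still at 0.415 CPM per kb. The ranges of neighbours did not overlap between *Tgfb2* and *Tgfbr1*, between *Inhba* and *Tgfb1*, between *Tgfb3* and *Tgfbr2*, or between *Acvr2b* and *Fst*. All other neighbours overlapped across the control pools, and their order is not resolved. With the longest annotated transcript as the length, a setting chosen after the values were seen, *Tgfb1* (25.0 CPM per kb) passed *Inhba*, *Acvr2b* (4.88) passed *Mstn*, and *Fst* stayed last (1.499).

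**Figure D2:**
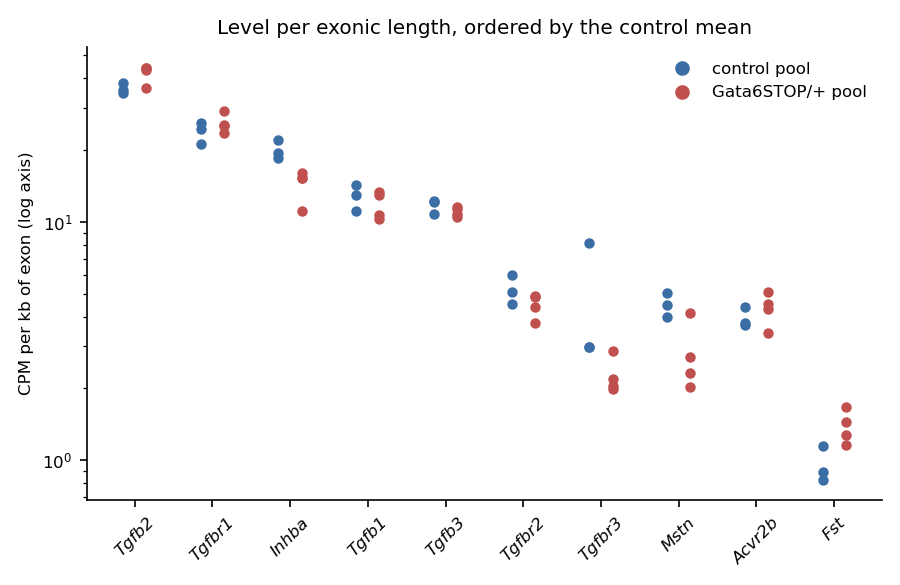
Level per exonic length in CPM per kb (vertical log axis) of the 10 genes, ordered by the control mean, in each control (blue) and *Gata6STOP/+* (red) pool. Levels span from 36.3 (*Tgfb2*) to 0.954 CPM per kb (*Fst*) in control pools.

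*Inhba* encodes the beta A subunit that forms activin A. The gene (ENSMUSG00000041324) spans 16011851 to 16031621 on the plus strand of chromosome 13 of GRCm38. Control replicates 3, 4 and 5 had 141, 118 and 124 CPM, and *Gata6STOP/+* replicates 1, 3, 4 and 5 had 102, 70.9, 97.6 and 97.8 CPM. All 4 *Gata6STOP/+* pools lay below the lowest control pool, and replicate 3 lay far below the others. The means were 128±11.6 CPM (s.d., *n*=3) and 92.2±14.4 CPM (s.d., *n*=4), or 72.3% of the control level. The log2 fold change was −0.48 (95% interval −0.74 to −0.22, limma adjusted *P*-value=0.276), and an exact two-sided permutation test gave *P*=0.0571, the smallest value that 3 pools against 4 allow. *Inhba* was called by edgeR's likelihood ratio test on the recovered reads (adjusted *P*-value=0.0239, where 0.713% of all genes were called) and by DESeq2 (0.0195, 0.597%), but not by edgeR's quasi-likelihood test (0.290). Without *Gata6STOP/+* replicate 3 the log2 fold change was −0.36.

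The libraries also differed in cell type markers beside *Inhba*. The summed level of 6 cushion mesenchyme markers was 2714 to 3225 CPM in control and 2268 to 3014 CPM in *Gata6STOP/+* pools, lowest in replicate 3. Neural crest and glia markers, of which 4 of 5 had deposited values, summed to 78.9 to 115 CPM and 67.6 to 79.3 CPM, with *Erbb3* as the most abundant. Their part in the *Inhba* difference was not tested.

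*Mstn* encodes myostatin, a ligand best known as a brake on muscle growth. The gene (ENSMUSG00000026100) spans 53061640 to 53068079 on the plus strand of chromosome 1. Control replicates 3, 4 and 5 were at 12.1, 10.8 and 13.7 CPM, and *Gata6STOP/+* replicates 1, 3, 4 and 5 at 11.2, 5.51, 6.26 and 7.33 CPM. Replicate 1 of the *Gata6STOP/+* pools thus lay within the control range, whereas the other 3 lay below it. The means were 12.2±1.45 CPM (s.d., *n*=3) and 7.57±2.52 CPM (s.d., *n*=4), or 62.2% of the control level. The 95% interval of the log2 fold change of −0.69 ran from −1.13 to −0.25, the limma adjusted *P*-value was 0.382, and the exact permutation *P*-value was 0.114. Without *Gata6STOP/+* replicate 1 the log2 fold change was −0.89 (limma adjusted *P*-value=0.126). That pool also had the lowest summed level of 9 cardiomyocyte markers, at 16195 CPM, where the control pools were at 20784 to 23356 CPM and the other *Gata6STOP/+* pools at 21079 to 24184 CPM. Of 7 markers of the myogenic cells of the pharyngeal arches, 1 (*Tcf21*) was among the genes with deposited values. Those genes had been filtered at 1 CPM in 3 or more samples. *Tcf21* was at 35.2 to 42.0 CPM in control and 33.1 to 45.3 CPM in *Gata6STOP/+* pools. With 1 marker, the presence of these cells was not established, and their part in the *Mstn* values was not tested.

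*Fst* (ENSMUSG00000021765, minus strand of chromosome 13, 114452290 to 114458951), the extracellular inhibitor of both ligands, differed in the other direction, from a low level. Control replicates 3, 4 and 5 stood at 4.08, 3.80 and 5.26 CPM, against 5.33, 5.87, 6.63 and 7.68 CPM in *Gata6STOP/+* replicates 1, 3, 4 and 5. All *Gata6STOP/+* pools were higher than all control pools, though *Gata6STOP/+* replicate 1 and control replicate 5 were close. These values rest on 85 to 264 reads per pool. The means were 4.38±0.780 CPM (s.d., *n*=3) and 6.38±1.02 CPM (s.d., *n*=4), or 146% of the control level, and the log2 fold change was 0.50 (95% interval 0.15 to 0.84, limma adjusted *P*-value=0.428). It was 0.39 with 2 CPM added before the logarithm and 0.55 by edgeR's quasi-likelihood test, since the constant shrinks the change of a gene with so few reads.

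Set against *Fst* within each pool, both ligands had lower ratios in the mutant. The ratio of *Inhba* to *Fst*, each per kb, measured 24.8, 22.4 and 16.9 in control replicates 3, 4 and 5 and 13.8, 8.68, 10.6 and 9.15 in *Gata6STOP/+* replicates 1, 3, 4 and 5. The lowest control pool stayed above the highest *Gata6STOP/+* pool. This follows from the levels of *Inhba* and *Fst* themselves, each without overlap and in opposite directions, and adds no separate evidence. The ratio of *Mstn* to *Fst* was 5.03, 4.81 and 4.40 in control and 3.56, 1.59, 1.60 and 1.62 in *Gata6STOP/+* pools. Here *Gata6STOP/+* replicate 1 again stood between the control pools and the other 3, which were nearly equal. The ratio of *Inhba* to *Mstn* overlapped between the groups, at 3.84 to 4.93 in control and 3.87 to 6.59 in *Gata6STOP/+* pools. These pairs were chosen with the values known and were given no test.

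**Figure D3:**
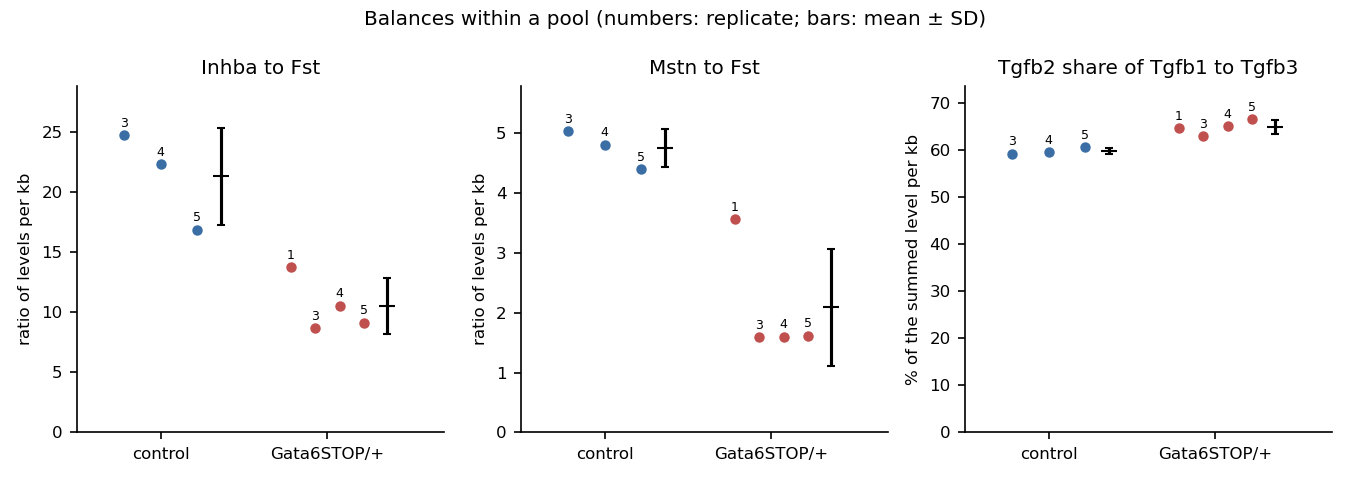
Ratios of *Inhba* to *Fst* and of *Mstn* to *Fst* (levels per kb) and the share of *Tgfb2* in the summed level per kb of *Tgfb1*, *Tgfb2* and *Tgfb3* (in %), in each control (blue) and *Gata6STOP/+* (red) pool, with replicate numbers and mean±s.d. as bars. The ratio of *Mstn* to *Fst* is 1.59 to 1.62 in 3 *Gata6STOP/+* pools and 3.56 in replicate 1.

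Among the TGF-beta ligands, *Tgfb2* (ENSMUSG00000039239, minus strand of chromosome 1, 186622792 to 186705989) was the most abundant and the only one with an unadjusted limma *P*-value under 0.05. Its level was 223, 201 and 207 CPM in the controls (replicates 3, 4 and 5) and 257, 211, 256 and 251 CPM in *Gata6STOP/+* replicates 1, 3, 4 and 5. Replicates 1, 4 and 5 of the *Gata6STOP/+* pools lay above every control pool, and replicate 3 lay within the control range. The means were 210±11.05 CPM (s.d., *n*=3) and 244±22.0 CPM (s.d., *n*=4), or 116% of the control level (log2 fold change 0.21, 95% interval 0.036 to 0.38, limma adjusted *P*-value=0.525). *Tgfb1* (ENSMUSG00000002603, chromosome 7, 25687002 to 25705077), the isoform best known from immune and matrix regulation, was at 56.0 to 71.8 CPM in control and 51.7 to 67.1 CPM in *Gata6STOP/+* pools, with a 95% interval of the log2 fold change from −0.36 to 0.13. *Tgfb3* (ENSMUSG00000021253, chromosome 12, 86056745 to 86079041) was at 36.4 to 41.5 and 35.3 to 39.2 CPM, with an interval of −0.24 to 0.076. Both groups overlapped for *Tgfb1* and *Tgfb3*, and neither interval excluded 0. As a share of the summed level per kb of the 3 ligands, *Tgfb2* made up 59.2%, 59.5% and 60.6% in control replicates 3, 4 and 5 and 64.7%, 62.9%, 65.0% and 66.5% in *Gata6STOP/+* replicates 1, 3, 4 and 5. The shares did not overlap, replicate 3 included, in which the level of *Tgfb2* itself lay within the control range. The share was also chosen with the values known, and its size depends on the gene length used. By the longest annotated transcript, control levels were 25.0 CPM per kb for *Tgfb1* and 41.1 for *Tgfb2*. By all exonic bases they were 12.8 and 36.3. The shares were not computed by the longest transcript.

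The sequences upstream of 3 ligand genes are shown, those with an unadjusted limma *P*-value under 0.05, and were thus picked by these same values. *Mstn* and *Inhba* were lower and *Tgfb2* was higher in *Gata6STOP/+* pools, and 0 of them were called by limma. Windows of 250 bases before the RefSeq start of the gene (GRCm38.p6) were given for 7 of the 10 members, in 8 windows, because *Tgfbr1* has a second RefSeq start within the gene (window chr4:47385966-47386215). They were searched for GATAA (both strands, 1 form of the GATA site), CAGAC (both strands, a SMAD box) and TATAA (forward strand, the TATA box). GATA followed by another base was not searched for, so a window without GATAA can still hold GATA. No match overlapped another. Capitals mark the matches, with TTATC as the reverse of GATAA, and all sequences read from 5′ to 3′ on the strand of the gene.
Mstn, chr1:53061390-53061639, plus strand: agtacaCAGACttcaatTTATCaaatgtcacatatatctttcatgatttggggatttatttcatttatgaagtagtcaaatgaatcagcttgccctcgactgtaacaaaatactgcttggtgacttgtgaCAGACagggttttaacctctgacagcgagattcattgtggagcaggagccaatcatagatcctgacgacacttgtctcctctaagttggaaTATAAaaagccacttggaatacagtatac
Inhba, chr13:16011601-16011850, plus strand: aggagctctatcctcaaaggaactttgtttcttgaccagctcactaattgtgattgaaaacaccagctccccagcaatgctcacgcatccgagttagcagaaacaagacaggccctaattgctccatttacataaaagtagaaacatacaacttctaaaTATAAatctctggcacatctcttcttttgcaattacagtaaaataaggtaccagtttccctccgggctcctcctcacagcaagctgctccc
Tgfb2, chr1:186705990-186706239, minus strand: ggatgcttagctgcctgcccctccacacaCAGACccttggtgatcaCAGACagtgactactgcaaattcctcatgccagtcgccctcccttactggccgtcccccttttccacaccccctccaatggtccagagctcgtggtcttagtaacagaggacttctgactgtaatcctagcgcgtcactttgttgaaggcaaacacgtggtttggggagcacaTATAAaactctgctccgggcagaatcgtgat
The *Mstn* window held 1 GATAA match on the reverse strand, 233 bases before the start, and was the only one of the 8 member windows with it, where 22.6% of all 32851 windows held a match. It also held CAGAC at 244 and 120 bases and a TATAA at 29 bases before the start. The *Inhba* window held a TATAA 91 bases before the start and neither of the other motifs. The *Tgfb2* window held CAGAC at 221 and 204 bases and a TATAA 31 bases before the start. CAGAC was in 5 of the 8 member windows, for *Tgfbr1* in that of the inner start alone, and in 42.2% of all windows. TATAA was in 3 of the 8 and in 16.0% of all. These are matches of letters in a short window and show nothing on binding.

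Of the receptors, *Tgfbr3* had the widest difference, and it rested in part on a single pool. *Tgfbr3* (ENSMUSG00000029287, minus strand of chromosome 5, 107106570 to 107289629) encodes betaglycan, a co-receptor that presents TGF-beta 2 to the signaling receptors. Control replicates 3, 4 and 5 had 19.6, 53.2 and 19.5 CPM, and *Gata6STOP/+* replicates 1, 3, 4 and 5 had 13.4, 14.3, 13.0 and 18.9 CPM. Every *Gata6STOP/+* pool was below every control pool, narrowly so for replicate 5, whereas control replicate 4 was far above the other control pools. The means were 30.7±19.4 CPM (s.d., *n*=3) and 14.9±2.71 CPM (s.d., *n*=4). The log2 fold change was −0.87 (95% interval −1.52 to −0.22, limma adjusted *P*-value=0.466), and −0.39 (adjusted *P*-value=0.476) without control replicate 4.

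Control replicate 4 also stood apart for some marker genes of myocardium, endocardium and endothelium. *Nppa*, which encodes a natriuretic peptide of chamber myocardium, reached 174 CPM there, compared with 32.1 and 18.3 CPM in control replicates 3 and 5 and 3.26 to 28.3 CPM in *Gata6STOP/+* pools. *Npr3*, an endocardial gene, reached 100.1 CPM, compared with 39.6 and 44.5 CPM in the remaining controls and 34.2 to 46.8 CPM in *Gata6STOP/+* pools. *Emcn*, which encodes the endothelial sialomucin endomucin, reached 35.2 CPM, compared with 12.4 and 18.3 CPM and 11.4 to 15.4 CPM. Over the 7 endothelial and endocardial markers, the summed level was 895 CPM in this pool, 610 and 710 CPM in both remaining controls and 686 to 849 CPM in *Gata6STOP/+* pools. Over the 9 cardiomyocyte markers its sum, 22835 CPM, lay between those of the other control pools. *Cdh5*, *Kdr* and *Myl2* were also highest in this pool, whereas the other markers of both lists were not. *Nfatc1*, for example, was at 91.3 CPM there and at 118 CPM in control replicate 3. *Nppa*, *Npr3* and *Emcn* were singled out after their values were seen, and their part in the *Tgfbr3* value was not tested.

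**Figure D4:**
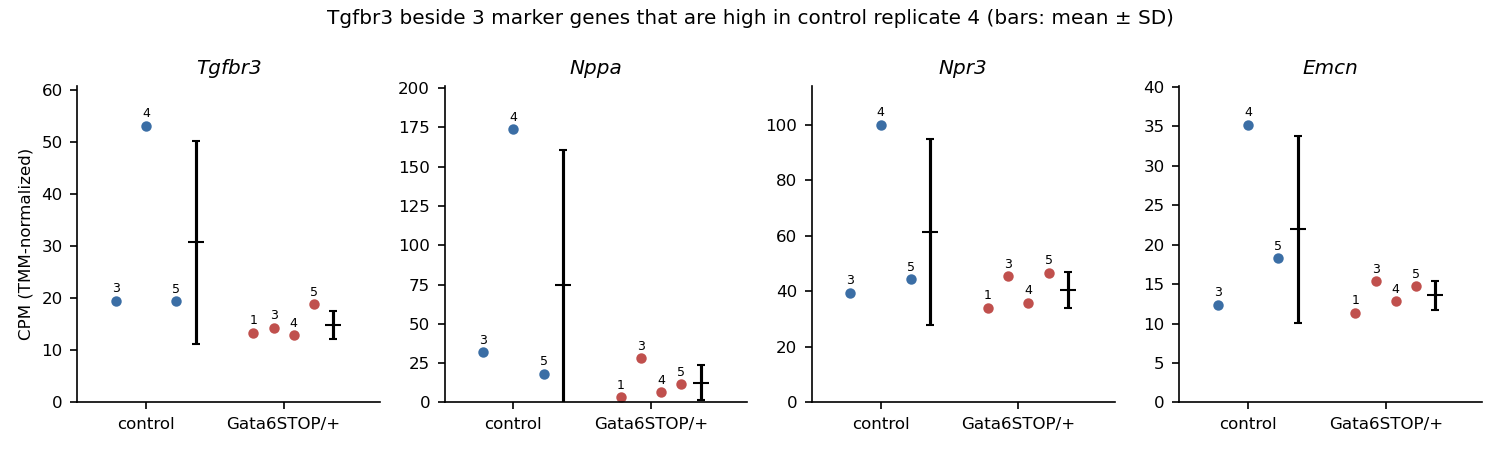
TMM-normalized CPM (vertical axes, from 0) of *Tgfbr3* and of the marker genes *Nppa*, *Npr3* and *Emcn* in each control (blue) and *Gata6STOP/+* (red) pool, with replicate numbers and mean±s.d. as bars (the control bar of *Nppa* is cut at 0). Control replicate 4 is the highest pool in all 4 panels, at 53.2 CPM for *Tgfbr3* and 174 CPM for *Nppa*.

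The signaling receptors differed less. *Tgfbr1* (ENSMUSG00000007613, chromosome 4, 47353222 to 47414931), the type I receptor of TGF-beta, was at 139 to 169 CPM in control and 154 to 191 CPM in *Gata6STOP/+* pools. Its log2 fold change had a 95% interval from −0.076 to 0.31. *Tgfbr2* (ENSMUSG00000032440, chromosome 9, 116084293 to 116175360), the type II receptor, was at 37.2, 49.1 and 41.5 CPM in control and at 39.5, 30.9, 36.1 and 39.9 CPM in *Gata6STOP/+* replicates 1, 3, 4 and 5. All 4 *Gata6STOP/+* pools lay below the control mean of 42.6 CPM, but the groups overlapped and the interval ran from −0.46 to 0.030. The log2 fold change of *Tgfbr2* was −0.21 and moved to −0.11 without control replicate 4, the pool in which it was highest. *Acvr2b* (ENSMUSG00000061393, chromosome 9, 119402118 to 119434995), a type II receptor shared by activins and myostatin, was at 14.5 to 17.2 CPM in control and 13.4 to 19.96 CPM in *Gata6STOP/+* pools, with an interval of −0.16 to 0.40. For *Tgfbr1*, *Tgfbr2* and *Acvr2b* the interval included 0, so that log2 changes of up to 0.31, 0.46 and 0.40 in size lie within these intervals.

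**Figure D5:**
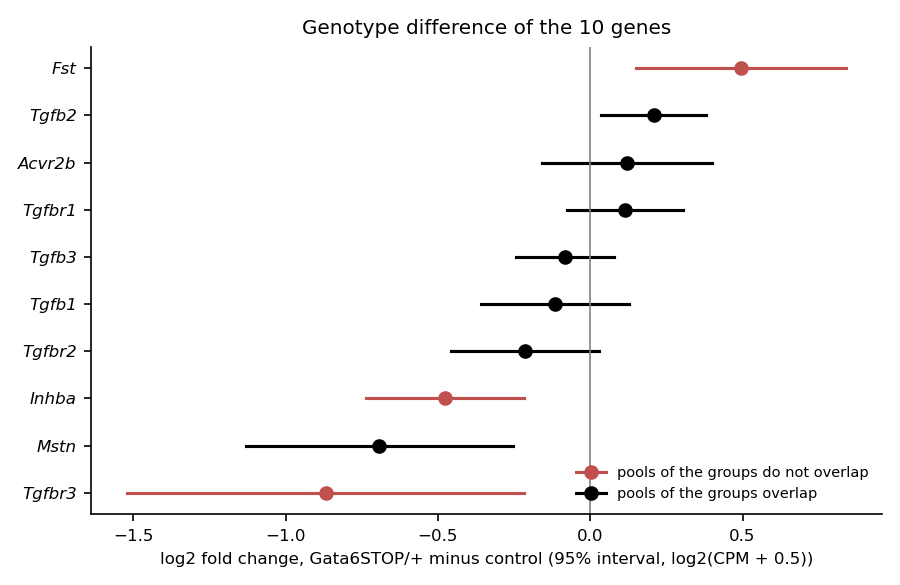
Log2 fold change (*Gata6STOP/+* minus control, on log2(CPM+0.5)) of the 10 genes with its 95% interval from limma, in red where the pools of both groups do not overlap and in black where they do. The intervals of *Tgfbr3*, *Mstn*, *Inhba*, *Tgfb2* and *Fst* exclude 0 before adjustment, and those of the other 5 genes include it.

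Beyond the 10 genes, 69 of 81 further genes of the pathway had deposited values and were analysed. Their median log2 fold change was 0.0050, 34 were lower and 35 higher, and 0 were called by limma. At an unadjusted *P*-value under 0.05, 3 were lower and 3 higher, and the groups did not overlap for 1 lower and 4 higher genes. The 6 genes under the unadjusted limit were 8.70% of the 69, where 8.06% of all genes were. The non-overlapping genes made up 1.45% below and 5.80% above, beside 4.16% and 4.31% of all genes. Of 3 further ligand genes, 0 passed either limit. *Inha*, the inhibin alpha subunit that turns activin subunits into their antagonists, was at 20.4±4.31 CPM (s.d., *n*=3) and 16.8±2.19 CPM (s.d., *n*=4). Of 6 further receptors and co-receptors, 0 passed either limit, and the most abundant per kb, the endothelial co-receptor *Eng*, was at 176±20.4 and 174±14.2 CPM. Among 6 extracellular antagonists the most abundant, *Fstl1*, was at 1604±71.1 and 1512±207 CPM.

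Among 15 genes for the storage and release of latent TGF-beta, 9 had a lower and 6 a higher mean log2 level in *Gata6STOP/+* pools. *Ltbp2*, a latent TGF-beta binding protein family member of elastic fibres, was the 1 gene with an unadjusted *P*-value under 0.05. Control replicates 3, 4 and 5 had 0.719, 0.690 and 1.74 CPM, or 15 to 31 reads, against 2.07, 1.99, 2.40 and 1.83 CPM in *Gata6STOP/+* replicates 1, 3, 4 and 5. The groups did not overlap, but control replicate 5 came close (log2 fold change 0.79, limma adjusted *P*-value=0.401). *Thbs1*, an activator of latent TGF-beta and the most abundant of these genes per kb, was at 658±78.8 and 587±87.6 CPM.

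Of the 19 SMADs and regulators, 16 had a higher mean log2 level in *Gata6STOP/+* pools, with a median log2 fold change of 0.060 and 0 calls. The 16 were 84.2% of the list, and 49.8% of all genes had a higher mean. All 3 genes whose groups did not overlap were higher, or 15.8% of the list, beside 4.31% of all genes. No test was made of the list, and over all genes the median size of a log2 fold change was 0.081. The list mixes genes that carry the signal with genes that restrain it, so the share gives no direction of signaling. *Wwp1*, a ubiquitin ligase, was at 68.5±4.59 and 79.3±3.67 CPM (log2 fold change 0.21, limma adjusted *P*-value=0.420). *Smad4*, the common partner of the receptor SMADs, was at 106±6.23 and 116±1.56 CPM (log2 fold change 0.13, adjusted *P*-value=0.601). *Tgfbrap1*, whose product associates with TGF-beta receptors, was at 29.8±1.05 and 32.6±0.329 CPM. The co-repressor *Ski*, the most abundant of the list per kb, was at 199±8.71 and 203±7.25 CPM.

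Of 25 genes often used as readouts of the pathway, 13 were lower and 12 higher, with a median of −0.032 and 0 calls. At an unadjusted limma *P*-value under 0.05, 3 were lower and 1 higher, or 16.0% of the list, beside 8.06% of all genes. The higher one was *Ltbp2* (log2 fold change 0.79), described above, and the lower ones follow. *Postn*, a matrix protein of cushion mesenchyme that the study also named from these libraries, was at 759±103 and 554±114 CPM (log2 fold change −0.47). *Cdkn2b*, a cell cycle inhibitor induced by TGF-beta, was at 4.94, 4.07 and 4.59 CPM in control and 3.26, 2.43, 3.95 and 2.76 CPM in *Gata6STOP/+* pools, which all lay below the control pools (log2 fold change −0.50, limma adjusted *P*-value=0.466). *Ccn2*, the connective tissue growth factor gene, was at 161±38.2 and 124±18.6 CPM, with control replicate 4 highest at 205 CPM. The feedback inhibitor *Smad7* was at 85.8 to 121 CPM in control and 93.6 to 121 CPM in *Gata6STOP/+* pools, and the groups overlapped. *Acta2*, smooth muscle actin and the most abundant readout per kb, was at 1573±127 and 1811±272 CPM. *Smad7* was named after its values were seen.

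The 11626 other genes that averaged 5 CPM or more were searched for the profiles most like those of *Mstn* and *Inhba*. Likeness was measured by Pearson correlation of log2(CPM+0.5) over the 7 pools. For *Mstn* the nearest profiles were *Lrrc41* (*r*=0.99), *Sfrp2* (0.98) and *Btd* (0.97), and 40 genes had an *r* over 0.9. For *Inhba* they were *Npdc1* (0.99), *Smtn* (0.97) and *Atp9a* (0.97), and 70 genes had an *r* over 0.9. With so few pools and so many genes, values this high describe these libraries alone, and the pools share their group difference and depth.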

How the data were processed

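OFTs of 3 control and 4 *Gata6STOP/+* pools were sequenced as strand-specific, polyA-selected libraries, read from 1 end. The authors trimmed adapters with Cutadapt 1.18, quantified genes with RSEM 1.2.3 against the GRCm38 genome and Ensembl annotation, required 1 CPM in 3 or more samples, and deposited CPM values scaled by TMM in edgeR 3.32.1. The number of columns matching no sample was 0.

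In each pool, 100% of the values were whole multiples of 1 step (within 0.01 reads), so reads were recovered. The smallest value stood for 2, 6 and 4 reads in *Gata6STOP/+* replicates 3 and 5 and control replicate 4, and for 1 read elsewhere.

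Genes were tested with limma 3.58.1 (R 4.3.3), lmFit and eBayes with a trend, two-sided, on log2(CPM+0.5), over all 7 pools and 14732 genes, without covariates. Single genes were also tested by exact permutation of the pools (35 arrangements, scipy 1.17.1). Alternatives were constants of 0.1 and 2 CPM, a mean of at least 5 CPM, median-of-ratios scaling, a replicate block, edgeR 4.0.16, DESeq2 1.42.0 and leaving out each pool. The limma, edgeR and DESeq2 fits were tested on simulated data. Gene positions and exonic lengths (all exonic bases) come from GENCODE M21, which held 14723 of the identifiers. Overlapping genes on the opposite strand, and one within *Tgfbr3*, shared no exon with members where they had values. Named genes were the members, *Gata6*, up to 4 genes of each pathway list with an unadjusted *P*-value under 0.05 or no overlap, the most abundant of each list per kb, and the 3 profiles nearest *Mstn* and *Inhba*. Members and lists were chosen with earlier results of these data known.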

Additional observations from a re-analysis of the deposited data

Results flagged for a closer look

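A *Gata6STOP/+* pool stood apart from the other 3 in 3 of the 30 values examined, where chance alone gives about 1 in 20. For *Tgfb2*, replicate 3 was lowest at 211 CPM, with a gap to the next pool of 0.864 of the whole range. For *Inhba*, replicate 3 was lowest at 70.9 CPM, with a gap of 0.847 of the range. For the ratio of *Mstn* to *Fst*, replicate 1 was highest at 3.56, with a gap of 0.986 of the range. Control pools, of which there are 3, were not examined in this way.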

How the results depend on the processing

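All 10 fold changes kept their direction in the 17 alternatives, and 166 of the 170 values kept their side of the threshold. The exceptions were *Inhba* by edgeR's likelihood ratio test, by that test with the replicate block (adjusted *P*-value=0.0159) and by DESeq2, and *Mstn* by the likelihood ratio test with the replicate block (2.99e-05). These tests called 1, 2 and 1 members in the order likelihood ratio, likelihood ratio with the block and DESeq2, and the blocked one called 1 further pathway gene, *Postn*. Over all genes, the likelihood ratio test called 105 genes, or 118 with the replicate block (0.801%), and DESeq2 88, while limma with the block called 14 (0.095%), edgeR's quasi-likelihood test with the block 13 and limma with 0.1 CPM added 1. The quasi-likelihood test without the block called 0, with 1177 genes at an unadjusted *P*-value under 0.05. Without single pools, limma called 0 to 13 genes over all (13 without control replicate 4, 2 without *Gata6STOP/+* replicate 3 and 1 without replicate 1) and 0 members. The cause of these differences in the number of calls was not tested. *Gata6STOP/+* replicate 1 has no control pool of its number, so a replicate block leaves it out of the fold change. For *Mstn*, limma gave −0.89 with the block and −0.89 without that pool. It was the *Gata6STOP/+* pool that lay within the control range of *Mstn*. Over same-numbered pools the deviations from the group means correlated at −0.0084, −0.12 and −0.0016 (replicates 3, 4 and 5), so the numbers were not taken as pairs. With 1 pool left out, log2 fold changes ran from −0.53 to −0.36 for *Inhba*, −0.89 to −0.57 for *Mstn*, −1.11 to −0.39 for *Tgfbr3*, 0.41 to 0.62 for *Fst* and 0.18 to 0.28 for *Tgfb2*. Depth limits *Fst* and *Ltbp2* most.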
